A study of Arabidopsis thaliana with 6 samples.

Results

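The SR and RSZ genes are the serine/arginine-rich splicing factor genes SR34 (AT1G02840), SR34a (AT3G49430), SR34b (AT4G02430) and SR30 (AT1G09140), and the zinc knuckle genes RSZ21 (AT1G23860), RSZ22 (AT4G31580) and RSZ22a (AT2G24590). They were taken by locus identifier, and all 7 were found among the 33602 genes of the gene table, with 63 introns, 89 exon bins and 128 splice junctions. Polyadenylated RNA had been sequenced from 3 wild type and 3 prmt5 mutant libraries of Arabidopsis thaliana, both genotypes in the Col-0 ecotype. The titles mark every one of these libraries as control and as part of experiment A. Seeds had been kept 4 days in the dark at 4 °C, and whole plants were taken after 15 days on agar medium at 22 °C in continuous white light. The labels give no prmt5 allele, describe the source as pooled tissues and do not say whether replicates came from separate plantings, so p-values measure the spread between these libraries. Gene counts per library lay between 29145068 and 59480457.

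SR proteins bind exonic and intronic sequences of a pre-mRNA through RNA recognition motifs and recruit splicing components, including the U1 particle at 5′ splice sites, through a domain rich in arginine and serine. The SR subfamily carries a pair of RNA recognition motifs and is related to human SRSF1, while the RSZ subfamily carries a recognition motif and a zinc knuckle and is related to human SRSF7. Many plant SR genes are themselves alternatively spliced, and several of the resulting transcripts hold early stop codons. PRMT5 symmetrically dimethylates arginines of spliceosomal Sm and LSM proteins, and Arabidopsis prmt5 mutants are known for defects in splicing and in flowering time.

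The labels were checked on PRMT5 itself, which has the reference symbol SKB1 (AT4G31120). Levels are given in CPM, counts per 1000000 tested reads with library totals multiplied by TMM normalization factors. In replicate order, here and below, the level of PRMT5 over the whole gene was 35.5, 29.4 and 30.9 CPM in wild type against 56.0, 58.7 and 53.7 CPM in the mutant. The targeted gene was thus higher in its own mutant (log2 change 0.81 ± 0.10 SE, edgeR adjusted p = 0.000110), and since the labels give no allele, they do not say whether its reads should fall. A pair of its junctions was chosen after their values were seen. The annotated junction had 165, 226 and 93 reads in wild type against 20, 16 and 18 in the mutant. A second junction that shares a splice site with it had 0 reads in each wild type library, a count that allows up to 3 reads, and 28, 48 and 31 reads in the mutant libraries. These junctions separated the 2 labelled groups, which was known when the pair was chosen. Without an allele in the labels, they cannot show which group carries the mutation. Libraries also differed in how reads spread along genes. With genes cut into 3 equal parts, read density in the last part over that in the first had a median log2 ratio of 1.72, 1.29 and 1.37 in wild type against 0.80, 0.87 and 1.36 in the mutant, over 14188 genes.

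SR34a rose in the mutant, RSZ21 fell, and the other 5 genes did not pass the test. SR34a had 3337, 3767 and 1791 reads in wild type against 6715, 7859 and 6589 in the mutant. Scaled to library size, its level was 85.6, 66.3 and 63.9 CPM in wild type against 196, 189 and 192 CPM in the mutant. Every mutant library lay more than 100 CPM above every wild type library. The log2 change, mutant minus wild type, was 1.42 ± 0.12 (SE; edgeR adjusted p = 9.32e-06), a 2.68-fold rise. In whole plants, a change in the number of cells that express a gene cannot be told apart from a change in RNA per cell.

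RSZ21 had 36.3, 31.8 and 30.1 CPM in wild type against 23.6, 26.4 and 24.3 CPM in the mutant. The groups did not overlap, and the log2 change was -0.40 ± 0.10 (SE; edgeR adjusted p = 0.0107). Adding the read density ratio given above as a covariate ended the call (log2 change -0.32, adjusted p = 0.156 by the same test). The background for these counts was high: 34.5% of the 21949 genes tested were called in either direction and 18.6% were called higher, so 2 calls among 7 genes were no more than the table as a whole showed.

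For the other members no change was called. RSZ22a had 33.7, 28.8 and 34.7 CPM in wild type against 35.0, 39.7 and 36.8 CPM in the mutant (log2 change 0.20 ± 0.10 SE, edgeR adjusted p = 0.150). SR30 had 104, 102 and 104 CPM against 110, 109 and 118 CPM (log2 change 0.12 ± 0.09, edgeR adjusted p = 0.344). In both genes the mutant libraries all lay above the wild type libraries, by less than the test could separate. For SR34 (log2 change -0.09 ± 0.11, edgeR adjusted p = 0.553), RSZ22 (-0.07 ± 0.10, 0.611) and SR34b (0.03 ± 0.10, 0.835) the groups overlapped. SR34 ran from 110 to 134 CPM in wild type and from 106 to 121 CPM in the mutant, RSZ22 from 42.0 to 50.2 and from 40.0 to 46.2 CPM, and SR34b from 27.6 to 32.8 and from 30.1 to 33.1 CPM. The median log2 change of the 7 genes was 0.03, against -0.02 over all genes tested.

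Levels were compared between genes as reads per kb of exonic length per 1000000 reads, with library totals scaled as for CPM. In wild type SR34 was highest, at 75.2 ± 7.9 (SD, n = 3), followed by SR30 at 64.2 ± 0.6, and the ranges of these genes did not overlap. RSZ22 at 44.5 ± 4.3 and SR34a at 43.1 ± 7.1 overlapped, as did RSZ21 at 20.3 ± 2.0 and SR34b at 18.8 ± 1.6, the lowest of the family. RSZ22a, at 32.4 ± 3.2, lay between these pairs without overlap. In the mutant SR34a moved to the top at 115 ± 2.1, above SR34 at 70.7 ± 4.8 and SR30 at 69.7 ± 3.0, which overlapped each other. RSZ21, at 15.4 ± 0.9, became the lowest and no longer overlapped SR34b, at 19.2 ± 1.0.

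SR34a made up 14.4 ± 1.3% of the summed level of the 7 genes in wild type and 31.2 ± 0.6% in the mutant (SD, n = 3 each). The sum itself was 299 ± 22.7 in wild type and 370 ± 2.5 in the mutant, in the same unit. RSZ22 and RSZ22a encode proteins with 89.8% identical residues, and SR34 and SR34b with 80.1%, both relative to the shorter protein. The longest identical stretches of their coding sequences were 23 and 32 bases, and how the counting treated reads with several matches is not stated in the sources used here.

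**Figure D1:**
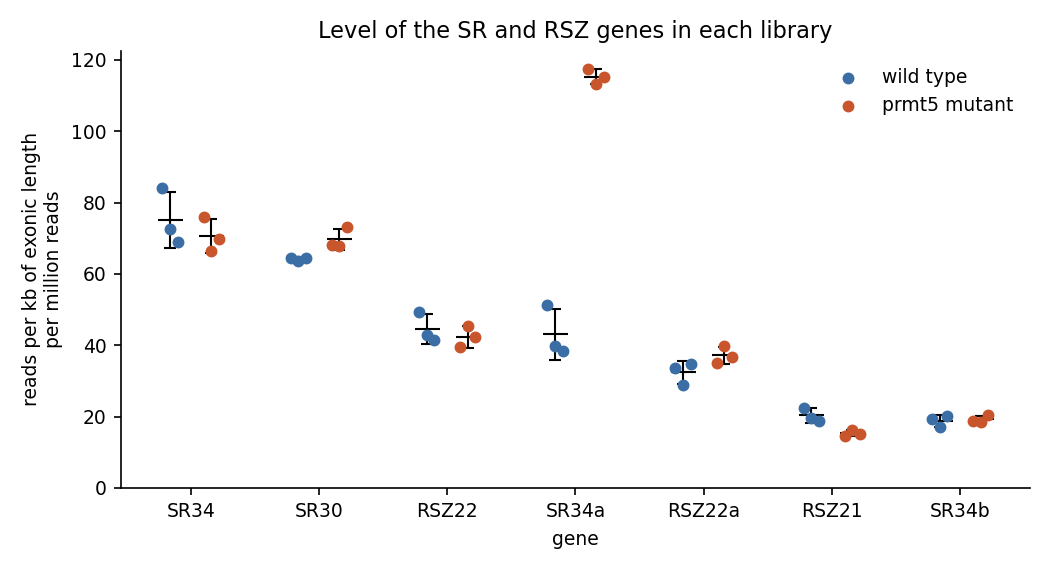
Level of each gene, in reads per kb of exonic length per 1000000 reads, in 3 wild type and 3 prmt5 mutant libraries; points are libraries, and horizontal marks with bars are the mean and SD. SR34a rises to the highest level in the mutant, from 43.1 to 115.

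The rise of SR34a ran along most of the gene and was steepest in one stretch of its 5′ untranslated region. Relative to library size, 13 of its 16 tested exon bins were higher in the mutant by the edgeR test, none was lower, against 11.8% of all exon bins higher on this scale. The log2 changes ran from 0.11 in the bin nearest the 3′ end, which is 2 bases long, to 2.94 in bin E003. Bin E003, at chr3:18332248-18332492, is annotated as a skipped exon bin. It had 87, 232 and 65 reads in wild type against 1013, 1085 and 790 reads in the mutant. Per 100 reads of the gene this was 4.13 ± 1.83 in wild type and 13.6 ± 1.6 in the mutant (SD, n = 3 each), without overlap. The change relative to the gene was, on the log2 scale, 1.69 ± 0.24 (SE; edgeR adjusted p = 0.0227).

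E003 was the only one of 83 tested exon bins of the 7 genes to be called relative to its gene, against 0.114% of the 121498 exon bins tested. At an unadjusted p under 0.05 there were 20 bins, 9 of them in SR34a, against 17.5% of all exon bins. The call of E003 was close to the threshold: its adjusted p lay between 0.0799 and 0.177 with the coverage covariate, with neighbouring bins as the reference, and when mutant replicate 1 or 2 or wild type replicate 1 or 3 was left out, while the log2 change remained between 1.28 and 1.69. Adding the replicate number as a block also ended the call. The read density of E003 per kb was 12.9 ± 5.5% of that of the next exon bin in wild type and 38.2 ± 5.7% in the mutant. No bin near the 3′ end of SR34a was called relative to its gene. The bin at chr3:18334914-18335039 had 480, 366 and 209 reads in wild type against 402, 562 and 445 in the mutant, which relative to the gene is -0.84 ± 0.15 on the log2 scale (SE; edgeR adjusted p = 0.0839). The density ratio along genes given above was lower in 2 mutant libraries than in any wild type library. With this ratio as the coverage covariate, no exon bin of the 7 genes was called. Beyond that fit, its part in these bins was not tested.

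**Figure D2:**
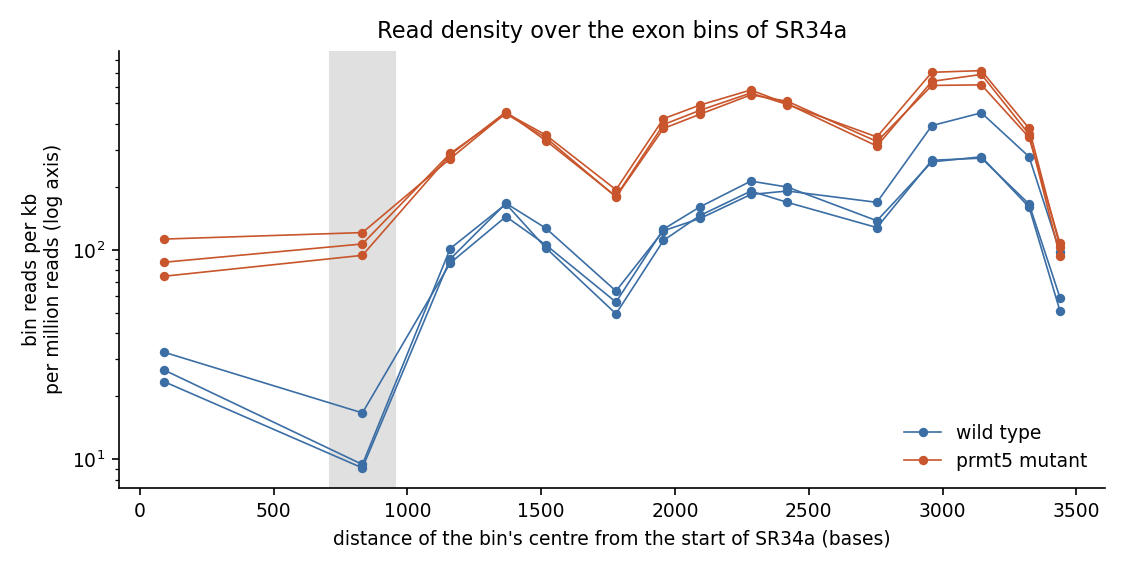
Read density per kb per 1000000 reads (log axis) in the exon bins of SR34a against the distance of each bin's centre from the start of the gene, 1 line per library; bins under 10 bases are left out. The shaded bin is E003, where density was 11.7 in wild type and 107 in the mutant on average.

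Junction reads showed which splice sites bordered this stretch. From the first donor of SR34a, at the end of its first exon, nearly all reads were spliced to an acceptor before chr3:18332248 or to one before chr3:18332642. E003 lies between them. An unannotated junction of 683 bases from the same donor ends inside E003 and had 0, 2 and 0 reads in wild type against 0, 0 and 2 in the mutant. These sites are shown because no other of the 14 tested junctions of the family moved as far in its share of reads. The donor line starts with 10 exonic bases and each acceptor line ends with 6. Capitals mark the first 6 intronic bases of the donor and the final intronic AG of each acceptor, and all 3 windows are on the plus strand of RefSeq's TAIR10.1 sequence.
SR34a first donor, chr3:18331703-18331726: gtttcccccgGTACGGattcattc
SR34a upstream acceptor, chr3:18332229-18332253: catgctttctttatgatAGatggca
SR34a downstream acceptor, chr3:18332623-18332647: tttttattctcatgtgcAGtttccc

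The junction to the upstream acceptor removes 535 bases. It had 18, 90 and 16 reads in wild type against 468, 413 and 303 in the mutant. Within the cluster of junctions that share its donor or acceptor, its share was 16.9 ± 9.5% in wild type and 70.1 ± 2.6% in the mutant (SD, n = 3 each). No wild type share was above 27.8% and no mutant share below 67.4%. Relative to the cluster the log2 change was 1.90 ± 0.26 (SE; edgeR adjusted p = 2.05e-06).

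The junction to the downstream acceptor removes 929 bases and had 132, 208 and 106 reads in wild type against 167, 187 and 117 in the mutant. Its reads stayed similar in number while those of the gene rose. Its share of the cluster was 74.5 ± 9.0% in wild type and 27.9 ± 2.4% in the mutant (log2 change -1.41 ± 0.25 SE, edgeR adjusted p = 0.000106). Another junction, at chr3:18332472-18332641, joins a donor inside E003 to the downstream acceptor. It had 17, 26 and 10 reads against 11, 13 and 9, and its share was 8.59 ± 1.39% in wild type and 1.97 ± 0.23% in the mutant (log2 change -2.14 ± 0.55, edgeR adjusted p = 0.0123). That last call was lost under 3 alternatives, among them the coverage covariate (edgeR adjusted p = 0.337) and the fit without mutant replicate 1 (0.0629).

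The stretch between the acceptors, chr3:18332248-18332641, is 394 bases long, lies upstream of the start codon and holds 10 ATG triplets, counted in all frames. In the RefSeq annotation, the transcripts spliced from the first donor directly to the downstream acceptor have 5′ untranslated regions of 193 and 230 bases with 1 ATG each. Other transcripts reach the downstream acceptor from a donor inside the stretch, and theirs are 417, 445 and 989 bases long with 7, 7 and 25 ATG triplets. The transcript that uses the upstream acceptor and keeps the whole stretch has one of 624 bases with 11 ATG triplets. The transcripts with 230 and 624 bases encode the same protein of 300 residues, as do 6 of the 7 RefSeq transcripts of SR34a in all. The other tested cluster of SR34a, which has the most reads, had no called junction: its 83-base coding intron held 95.0 ± 0.5% of the reads in wild type and 94.6 ± 1.1% in the mutant (log2 change -0.01 ± 0.19, edgeR adjusted p = 1.00).

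SR30, whose overexpression is known to alter the splicing of other plant genes and of its own transcript, changed its isoforms without a called change in level. From a single donor, reads were spliced to a proximal acceptor, which removes 604 bases and belongs to the RefSeq transcript for a protein of 256 residues, or to a distal acceptor 338 bases further on, which removes 942 bases and belongs to the transcript for 268 residues. In the transcript for 256 residues the stop codon lies 359 bases before the last exon junction. The sites are given because their use moved in opposite directions; SR30 lies on the minus strand, and capitals mark the same bases as above.
SR30 donor, chr1:2944155-2944178: ctgtctcaagGTATGAgtgttaga
SR30 proximal acceptor, chr1:2943559-2943583: tgcgttgtttgttttctAGatctgg
SR30 distal acceptor, chr1:2943221-2943245: gtttttggtcttgctgcAGgtccca

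The junction to the distal acceptor, chr1:2943227-2944168, had 225, 282 and 136 reads in wild type against 85, 104 and 76 in the mutant. Its share was 44.7 ± 3.9% in wild type and 22.1 ± 3.3% in the mutant (SD, n = 3 each), without overlap. The log2 change relative to the cluster was -1.03 ± 0.21 (SE; edgeR adjusted p = 0.00132). The junction to the proximal acceptor, chr1:2943565-2944168, had 243, 416 and 163 reads against 258, 347 and 335, a share of 55.3 ± 3.9% in wild type and 77.9 ± 3.3% in the mutant. Its own log2 change of 0.50 ± 0.20 did not pass (edgeR adjusted p = 0.190), although with 2 junctions in the cluster the shares mirror each other.

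SR34 had a more complex cluster, from the donor before chr1:628470 and another donor before chr1:628857, and none of its 5 junctions was called. The junctions of 78 and 89 bases start at the donor before chr1:628857. The 307-base junction ends upstream of that donor, so 1 transcript can hold a junction from each donor. Shares of this cluster are therefore shares of junction reads and not of transcripts. The junction of the transcript for 303 residues, which removes 818 bases, had 670, 809 and 361 reads in wild type against 312, 442 and 395 in the mutant. Its share was 63.1 ± 6.7% in wild type and 48.6 ± 6.6% in the mutant, and every mutant share was below every wild type share. The log2 change was -0.39 ± 0.19 (SE; edgeR adjusted p = 0.402). The junction of transcripts for 272 residues, which removes 307 bases and in 2 RefSeq transcripts leaves a stop codon 600 bases before the last exon junction, held 16.1 ± 3.2% and 21.0 ± 3.9%, with overlap (log2 change 0.40 ± 0.20, edgeR adjusted p = 0.471).

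A junction of 78 bases within that cluster, which matches no RefSeq intron, held 18.4 ± 3.6% in wild type and 25.6 ± 3.9% in the mutant (log2 change 0.51 ± 0.20, edgeR adjusted p = 0.197). The remaining junctions of the cluster were rare. That of 465 bases had 6, 14 and 10 reads in wild type against 21, 18 and 15 in the mutant (log2 change 1.13 ± 0.47, edgeR adjusted p = 0.254). That of 89 bases had 17, 19 and 6 reads against 19, 20 and 20 (log2 change 0.80 ± 0.43, edgeR adjusted p = 0.546).

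Across the family 72 of 128 junctions reached 10 reads in at least 3 libraries, and 14 of these, in 5 clusters, had a tested partner. Of the 14, 4 were called, 3 in SR34a and 1 in SR30, against 5.08% of the 5020 junctions tested in all genes. SR34b, RSZ21, RSZ22 and RSZ22a had no tested cluster, so isoform use was not tested there.

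**Figure D3:**
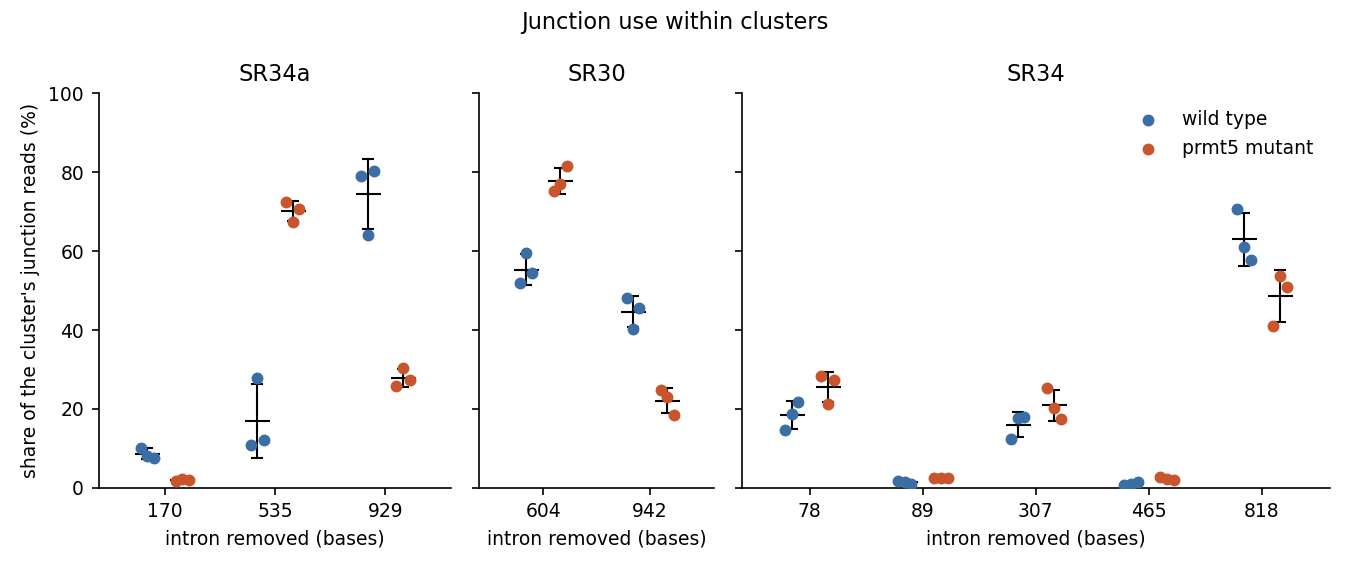
Share of each junction in the reads of its cluster, in percent, for SR34a, SR30 and SR34, with junctions named by the length of the intron they remove; points are libraries, and horizontal marks with bars are the mean and SD. In SR34a the 535-base junction rises from 16.9% to 70.1% while the 929-base junction falls from 74.5% to 27.9%, and in SR30 the 942-base junction falls from 44.7% to 22.1%.

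Intron reads rose in 5 of the 7 genes, each time in 1 or 2 introns. Of the 63 introns, 38 passed the filter of 10 or more reads in 3 or more libraries and 7 were called, all higher in the mutant relative to their gene, against 26.7% of the 34408 introns tested in all genes. The count for the family was therefore not above the background. Relative to library size 12 of the 38 were called, against 29.6% of all introns. The median log2 change of the 38 introns was 0.23, against 0.46 over all introns, and 23 of them (60.5%) had a change above 0, against 76.3% of all introns. Of the called introns, 3 had fewer than 10 reads in every wild type library and passed the filter through the mutant libraries. They are all the called introns of SR30 and RSZ21. The counts of called introns therefore describe the tested introns and not the 25 left untested.

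**Figure D4:**
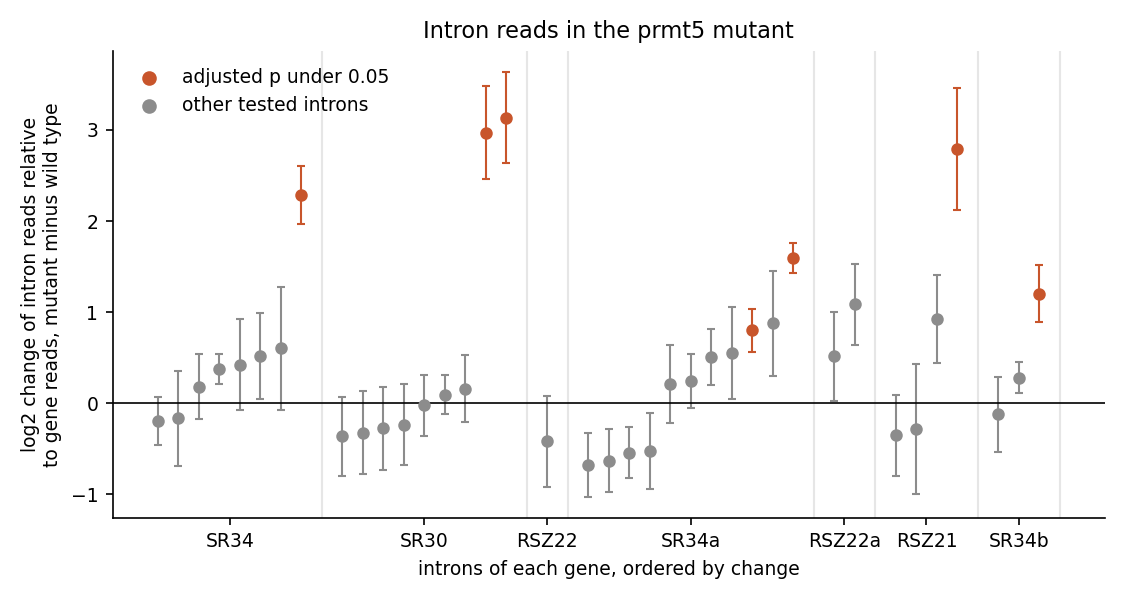
Log2 change of intron reads relative to gene reads, mutant minus wild type, for the 38 tested introns by gene; points are fitted changes, bars are standard errors, and coloured points passed the edgeR test at an adjusted p under 0.05. All 7 called introns lie above 0, from 0.80 in SR34a to 3.14 in SR30, and the introns that were not called run from -0.67 in SR34a to 1.09 in RSZ22a.

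The 5′ splice sites of the called introns are given here, so that they can be compared with the scores given further on: the last 10 exonic bases, the first 6 intronic bases in capitals, and 8 further intronic bases, on the strand of the gene. The last line is the donor with the highest score among introns that were not called.
SR34 intron I013, chr1:629322-629417, plus strand: tctaccttctGTGAGTaacaagat
SR30 intron I004, chr1:2944247-2944343, minus strand: agagcaggagGTCTTTtttttttt
SR30 intron I009, chr1:2945115-2945199, minus strand: gactaccgcgGTTTGTagagtctt
RSZ21 intron I005, chr1:8428819-8428914, minus strand: gcattggatcGTTAGTgttcttct
SR34b intron I013, chr4:1071675-1071842, plus strand: ctcgttcaagGTCAAGatctcctc
SR34a intron I011, chr3:18333987-18334216, plus strand: ttttatccggGTACCAtttctcta
SR34a intron I003, chr3:18332493-18332641, plus strand: atatattttgGTCTTAccatgttt
SR34a intron I005, chr3:18332940-18333017, not called: ctttgttgagGTAAGTgtattcgc

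SR34 intron I013, in the coding region or the 3′ untranslated region depending on the transcript, had 17, 18 and 14 reads in wild type against 65, 60 and 78 in the mutant. Per 100 gene reads this was 0.352 ± 0.094 and 1.66 ± 0.35 (SD, n = 3 each), without overlap (log2 change 2.29 ± 0.32 SE, edgeR adjusted p = 1.35e-06). Splicing over the same intron remained the main outcome, with 1243, 1352 and 587 spliced reads in wild type against 724, 806 and 802 in the mutant. Intron reads per 100 spliced reads rose from 1.69 ± 0.60 to 8.72 ± 1.16.

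SR30 had 2 called introns, both in the coding region. Intron I004 had 2, 5 and 5 reads in wild type against 20, 54 and 34 in the mutant (log2 change 3.14 ± 0.50 SE, edgeR adjusted p = 1.31e-05). Intron I009 had 2, 3 and 9 reads against 44, 38 and 31 (log2 change 2.97 ± 0.51, edgeR adjusted p = 3.58e-05). In each, every mutant library was above every wild type library, yet intron reads per 100 gene reads stayed low in the mutant, at 0.855 ± 0.328 for I004 and 0.926 ± 0.216 for I009. The other 7 tested introns of SR30 had log2 changes from -0.36 to 0.16, and none was called.

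In RSZ21, the gene that fell, coding intron I005 had 2, 3 and 3 reads in wild type against 11, 16 and 13 in the mutant. This intron, too, passed the filter only through the mutant libraries. Per 100 gene reads it went from 0.221 ± 0.117 to 1.46 ± 0.10 (log2 change 2.79 ± 0.67 SE, edgeR adjusted p = 0.00169). Its spliced reads numbered 94, 166 and 90 in wild type against 79, 93 and 64 in the mutant, so intron reads per 100 spliced reads went from 2.42 ± 0.80 to 17.1 ± 3.2.

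SR34b intron I013, in the 3′ untranslated region, had 18, 33 and 16 reads in wild type against 38, 56 and 48 in the mutant. Per 100 gene reads it went from 1.77 ± 0.32 to 4.12 ± 0.43 (log2 change 1.20 ± 0.31 SE, edgeR adjusted p = 0.00354). The call was lost with the coverage covariate, where the log2 change was 1.12 (edgeR adjusted p = 0.0745), and relative to library size, where it was 0.64 (0.142). The SR34b intron with the most reads, at chr4:1070887-1071273, had 189, 322 and 158 reads against 209, 286 and 248 and was not called (log2 change 0.28 ± 0.17, edgeR adjusted p = 0.234). It stood at 17.7 reads per 100 gene reads in wild type and 21.6 in the mutant.

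SR34a had 2 called introns. Intron I003 had 96, 146 and 80 reads in wild type against 712, 899 and 750 in the mutant, or 3.74 ± 0.80 and 11.1 ± 0.5 per 100 gene reads (log2 change 1.59 ± 0.17 SE, edgeR adjusted p = 1.38e-08). This interval lies inside the stretch between the acceptors described above, where RefSeq transcripts also hold exonic sequence. Reads spliced over its own boundaries numbered 7, 0 and 0 in wild type against 0, 6 and 1 in the mutant, so retention of I003 and inclusion of the longer exon cannot be told apart, and relative to those spliced reads the call ended (edgeR adjusted p = 0.162). Intron I011, in the coding region, had 41, 53 and 41 reads against 147, 223 and 210, which relative to the gene is 0.80 ± 0.23 (edgeR adjusted p = 0.00886). Its values per 100 gene reads overlapped between the groups, at 1.64 ± 0.57 and 2.74 ± 0.51, and its call was lost without wild type replicate 2 (adjusted p = 0.0506) or mutant replicate 3 (0.0667).

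RSZ22 and RSZ22a had no called intron, but only 1 of 5 introns of RSZ22 and 2 of 5 of RSZ22a had enough reads to be tested. In RSZ22a, intron I004 at chr2:10450449-10450540 had 11, 17 and 5 reads in wild type against 14, 27 and 31 in the mutant (log2 change 1.09 ± 0.44 SE, edgeR adjusted p = 0.0669). In RSZ22, intron I005 at chr4:15307691-15307769 had 24, 14 and 9 reads against 13, 12 and 5 (log2 change -0.42 ± 0.50, edgeR adjusted p = 0.599). Among the untested introns, picked after their values were seen, I004 of RSZ22 had 4, 7 and 2 reads against 8, 12 and 8, which per 100 spliced reads is 3.69 ± 0.78 in wild type and 8.15 ± 0.27 in the mutant (SD, n = 3 each). Intron I003 of RSZ22a had 0, 5 and 2 reads against 10, 11 and 6, or 2.38 ± 2.19 and 7.28 ± 1.88 per 100 spliced reads. In both, every mutant value lay above every wild type value. This was known when they were picked, so nothing is drawn from it.

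**Figure D5:**
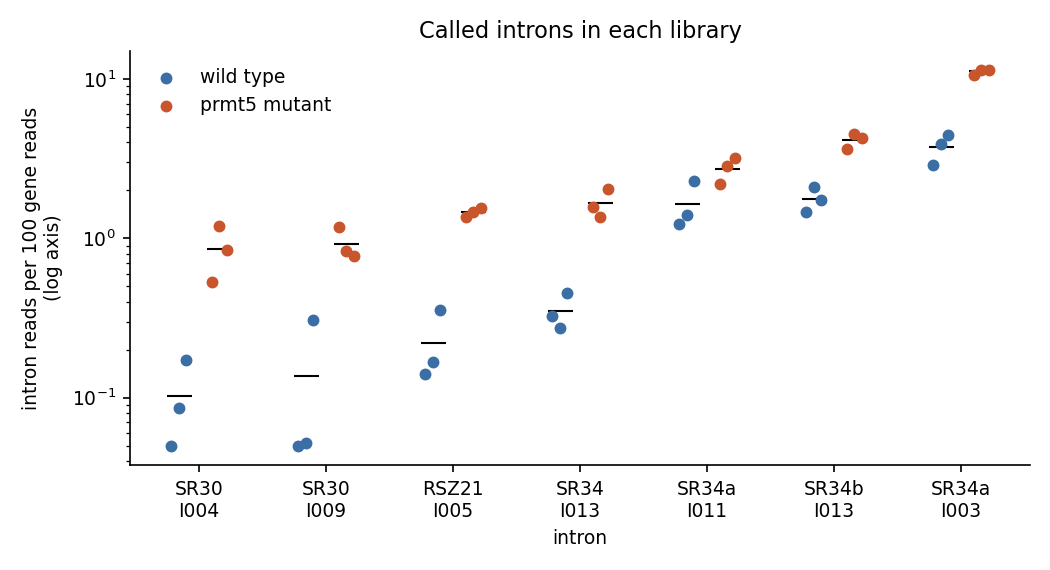
Intron reads per 100 gene reads (log axis) of the 7 called introns in each library, ordered by their wild type mean; points are libraries and horizontal marks are means. The groups are apart in 6 introns and overlap in SR34a I011. These introns were called on the same counts, so the separation adds no support. I003 of SR34a is highest, at 3.74 in wild type and 11.1 in the mutant.

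Donor scores were compared between the called introns and the others. The score sums, over 3 exonic and 6 intronic bases at the donor, the log2 ratio of each base's frequency at 108101 annotated junctions that begin with GT to a frequency of 0.25. Among tested introns that begin with GT, the 7 called ones scored from 1.36 to 5.49, with a median of 3.56. The 30 not called scored from 4.47 to 11.1, with a median of 7.22, and 5 of them were at or below 5.49. G at both the last exonic base and the fifth intronic base, the common bases there, was found in 1 of the 7 called introns and in 14 of the 30 others. Lengths overlapped: called introns were 85 to 230 bases long with a median of 97, and the others 73 to 604 with a median of 92. The lowest score of the called introns is that of SR34a I003, where retention cannot be told apart from inclusion of the longer exon. SR30 I004, SR30 I009 and RSZ21 I005 are in the called set only through the mutant libraries, and the highest score of that set is that of SR30 I009. These values describe 37 introns of 7 genes, and no test was made on them.

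Other genes of the SR family were counted in the same way. Of 13 other SR and SR-like genes, 6 were called against the background of 34.5% given above, 5 higher and 1 lower, with a median log2 change of 0.21. The 5 with the smallest p are named here. RS31a (0.90 ± 0.11, SE; edgeR adjusted p = 0.000108) and RS31 (0.65 ± 0.12, 0.00159), which belong to a plant-specific RS group, rose, as did SR45a (0.68 ± 0.09, 0.000201), a stress-responsive SR-like gene. SCL33, of the SC35-like group, rose by 0.39 ± 0.11 (edgeR adjusted p = 0.0175), a call that was lost without mutant replicate 2 (edgeR adjusted p = 0.0575), wild type replicate 2 (0.0725) or wild type replicate 3 (0.0740). RS2Z33, which carries a pair of zinc knuckles, fell (log2 change -0.42 ± 0.10, edgeR adjusted p = 0.00704), a call lost under the coverage covariate (-0.36, adjusted p = 0.0921). RS31a and RS2Z33 overlap a neighbouring gene, and because the strand setting of the counting is not given here, their values are uncertain.

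Of 10 genes for kinases of SR proteins and for their nuclear import, 4 were called, all higher, with a list median of 0.33. Of all genes tested, 34.5% were called in either direction and 18.6% were called higher. The LAMMER kinase genes FC2, also called AFC2, and FC1, also called AFC1, whose proteins phosphorylate SR proteins, changed by 0.92 ± 0.11 (SE; edgeR adjusted p = 9.8e-05) and 0.75 ± 0.10 (0.000160). AME3, the third gene of that group, changed by 0.52 ± 0.10 (edgeR adjusted p = 0.00213) and overlaps a neighbour. MOS14, the transportin that imports SR proteins into the nucleus, changed by 0.37 ± 0.12 (edgeR adjusted p = 0.0355). Its level in mutant replicate 3 was 27.2 CPM, beside 26.8 CPM in the highest wild type library, and its call was lost under the coverage covariate (0.06, adjusted p = 0.776) and when any library but mutant replicate 3 was left out.

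For each member the gene whose profile over the 6 libraries was most like it was sought among 13417 genes with a mean of at least 10 CPM, by the root mean square difference of log2(CPM + 1) after centring. The closest were SWC2 to SR30 (difference 0.00828), AT5G63960 to RSZ22 (0.0109), OCP3 to SR34 (0.0176), AT4G00040 to RSZ21 (0.0234), AT5G39730 to SR34b (0.0248) and RSW10 to RSZ22a (0.0294). SR34a was the least closely matched of the 7, with RBP47C′ at 0.0605. The centred values were not scaled, and SR34a had the largest change of the 7. The order of these differences therefore does not rank how distinct the profiles are. RBP47C′ had 47.9, 32.9 and 33.1 CPM in wild type against 103, 100.1 and 94.8 CPM in the mutant.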

How the data were processed

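The members and gene lists were chosen with earlier results of these data known. The deposited tables hold whole-number counts of reads per gene, exon bin, intron and junction in each library, without normalization, per the file headers; the effective length per gene is also from the deposited gene table. STAR and TAIR10 are named in the submitters' processing notes; the counting program, annotation and strand setting are not named in the sources used here. Coordinates count from 1 as in the tables. Sequences, strands, isoforms and symbols are from RefSeq's TAIR10.1 annotation, on which 98.5% of 109697 annotated junctions had GT and AG ends.

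All features of each table were fitted with edgeR 4.0.16 in R 4.3.3 (quasi-likelihood F-test, robust, TMM factors) with calls at an adjusted p under 0.05 (Benjamini-Hochberg). Introns and exon bins had log(gene count + 1) as offset, a minimum of 10 reads in 3 libraries and a mean gene count of at least 20. Junctions linked through shared starts or ends formed clusters, tested with diffSpliceDGE. Intervals around means are SD; errors of log2 changes are SE from the coefficient and its F value. The gene, intron, exon bin and junction tests were run on simulated counts, with library totals as the offset for introns and exon bins. Only part of the exon bins was used there. The alternatives, donor scores and closest-gene search were not simulated. Replicates differed by more than sampling noise, with a chi-square per gene of 8.49 to 58.6. All members, every called feature, the smallest-p intron of a member with none called, each member's most read cluster, up to 5 called genes per list and the closest gene were named; the SR34a bin E017 and the SR34b intron with most reads were chosen after their values were seen. DESeq2 1.42.0, other filters, references, clusters and left-out libraries were tried as alternatives.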

Additional observations from a re-analysis of the deposited data

How the results depend on the processing

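Of 447 values of 39 named results under alternatives, 410 kept their direction and their side of the threshold, 27 lost the call, 1 gained it and 9 changed sign. SR34a stayed called in every alternative, with log2 changes from 1.34 to 1.58. The count of called member genes was 1 in place of 2 with the coverage covariate. Called introns numbered 12 of 38 in place of 7 relative to library size, where 29.6% of all introns were called, and 3 to 7 when a library was left out, where 31 to 38 introns passed the filter. Called exon bins numbered 3 with DESeq2, 0 with the coverage covariate, 17 of 83 relative to library size, where 23.2% of all exon bins were called, and 0 to 6 when a library was left out. Called junctions numbered 2 with clusters that share a start and 1 with clusters that share an end. The cause was not tested, except that clusters of 1 kind hold fewer junctions (11 and 6 of the members in place of 14).

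Changes of sign were all in results that were not called, apart from the downstream SR34a junction, which was 0.062 with clusters that share an end, where its alternative acceptor is not in the cluster. With the coverage covariate RSZ22 was 0.032 and the 307-base SR34 junction was -0.052. The 78-base SR34 junction was -0.025 with clusters that share a start and -0.042 with clusters that share an end. Leaving out a library gave RSZ22 log2 changes between -0.13 and 0.0093, SR34b between -0.040 and 0.081, and the unannotated 71-base SR34a junction between -0.0080 and 0.27. The proximal SR30 junction passed with the cluster total as offset (0.48, edgeR adjusted p = 0.000385).

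Same-numbered libraries did not deviate together, with correlations of -0.13, -0.04 and 0.00110. Differently numbered ones had correlations from -0.11 to 0.14. The values thus show no pairing by number, but they cannot exclude a shared planting or batch. With the replicate block the exon bin count was 0 in place of 1 and MOS14 was not called (adjusted p = 0.0573); the counts of called member genes (2), introns (7) and junctions (4) did not move.

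Over all features, exon bin calls were 138, against 1413 with DESeq2, 57 with the coverage covariate, 28248 relative to library size, 42 with the block, and 43 to 11244 when a library was left out, the highest without mutant replicate 3. Called genes were 4132 in place of 7568 and introns 5682 in place of 9606 with the coverage covariate. Introns were 5123 to 5737 without a mutant library. Junction calls were 255, against 496 with the cluster total, 141 and 117 with clusters that share a start or an end, 132 with the coverage covariate and 129 to 186 when a library was left out. The called introns of SR30 and RSZ21 had fewer than 10 reads in every wild type library, and 25 introns of the family had too few reads to be tested.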

Other observations

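RSZ22a held an unannotated junction within its last exon, chosen after its values were seen and not tested, since it had no tested partner. The intron it removes, chr2:10451068-10451179 on the plus strand, is 112 bases long and has GT and AG ends. Reads numbered 103, 177 and 103 in wild type against 47, 80 and 49 in the mutant, in replicate order. Per 100 gene reads this was 9.75 ± 1.65 in wild type and 4.22 ± 0.54 in the mutant (SD, n = 3 each), without overlap, while the reads of the gene did not pass the test for a change.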
